A study of Homo sapiens with 9 samples.

Results

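A set of 10 genes that restrain mitogen-activated protein kinase (MAPK) signaling was followed in MDA-MB-453 cells: the dual-specificity phosphatases *DUSP1*, *DUSP2*, *DUSP4*, *DUSP5*, *DUSP6* and *DUSP10*, the Sprouty genes *SPRY2* and *SPRY4*, and the related *SPRED1* and *SPRED2*. They were taken by symbol from a gene table of 59452 symbols, and 10 of 10 were found. The list was chosen by family and with expression values of this experiment in view, since *DUSP1* and *DUSP2* were already known to be higher in suspended than in attached vehicle cells, so for these genes that comparison is a description: it is given without p-values, and its calls support nothing. MDA-MB-453 is an established human breast cancer line that the labels class as triple-negative and wild type. RNA sequencing was performed on 9 libraries, 3 in each of 3 conditions: attached culture with vehicle (DMSO), forced suspension on poly-HEMA-coated plastic with vehicle, and forced suspension with 10 μM AT0174, which blocks TDO2 as well as IDO1, enzymes that start tryptophan breakdown along the kynurenine route. Culture and treatment lasted 48 hours, and attached cells with AT0174 were not among the samples, so the drug was compared with vehicle in suspension alone.

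In the MAPK cascades a chain of kinases ends in ERK, p38 or JNK, which are active while a threonine and a tyrosine in their activation loop carry phosphate. DUSPs remove both phosphates, and several of their genes are themselves switched on by the kinase they shut off, so that they form a negative feedback loop. Sprouty and SPRED proteins act further up, between receptor tyrosine kinases, RAS and RAF, and their transcripts are widely used as readouts of ERK activity. In breast epithelium these inhibitors limit signaling from growth factor receptors and from the matrix.

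The libraries held 36649997 to 48019126 estimated counts. Luminal epithelial genes were abundant in every library, with *KRT8* at 779 to 877 and *EPCAM* at 293 to 363 TPM (a level scaled for transcript length and for depth). Of the receptors that define triple-negative disease, *ESR1* had 0 to 4 and *PGR* 5 to 18 counts, whereas *ERBB2* stood at 398 to 436 TPM, so that at the RNA level the cells did not lack all 3. Among markers of other cell types, *PTPRC* had at most 2 counts, *PECAM1* at most 7 and *COL1A2* at most 4, while *COL1A1* was found at 51.5 to 66.0 TPM in all conditions. Transcripts of the mitochondrial genome took 7.56% to 9.32% of counts in attached libraries, 4.05% to 4.34% in suspended vehicle libraries and 3.73% to 5.51% in suspended AT0174 libraries. The libraries are bulk RNA, so a shift in every cell and a shift in some of the cells cannot be told apart.

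The bases before the start sites of 3 of the genes are shown first, because these genes carry the main differences below: *DUSP1* had the largest difference between suspended and attached cells among the 10, *DUSP2* the next, and *DUSP6* was the gene of the 10 under the adjusted threshold of edgeR with AT0174. The sequences are from RefSeq on GRCh38.p14, each the 250 bases before the annotated start, written 5′ to 3′ along the gene. Of the 10 genes, 8 matched an entry of the promoter table, with 12 windows among them, since some genes have several starts. Capitals mark every match, on either strand, to TGACGTCA (the full cyclic AMP response element), TGACG (its shorter form), TGANTCA (AP-1), CCGGAAG (ETS), CACGTG (E-box), GGGCGG (SP1) or the CArG box of serum response elements. The shorter TGACG lies inside TGACGTCA, so a full element is counted under both.
DUSP1 (chr5:172771196-172771445, minus strand): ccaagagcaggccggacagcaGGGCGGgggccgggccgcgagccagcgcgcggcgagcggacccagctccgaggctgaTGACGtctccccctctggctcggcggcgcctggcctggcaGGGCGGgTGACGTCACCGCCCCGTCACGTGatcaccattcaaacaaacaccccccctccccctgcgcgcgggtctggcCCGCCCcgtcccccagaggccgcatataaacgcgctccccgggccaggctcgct
DUSP2 (chr2:96145441-96145690, minus strand): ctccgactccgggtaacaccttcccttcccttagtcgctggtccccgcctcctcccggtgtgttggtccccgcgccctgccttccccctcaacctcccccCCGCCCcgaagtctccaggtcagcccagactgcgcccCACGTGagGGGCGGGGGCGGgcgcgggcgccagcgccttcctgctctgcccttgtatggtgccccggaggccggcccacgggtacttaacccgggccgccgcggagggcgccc
DUSP6 (chr12:89352502-89352751, minus strand): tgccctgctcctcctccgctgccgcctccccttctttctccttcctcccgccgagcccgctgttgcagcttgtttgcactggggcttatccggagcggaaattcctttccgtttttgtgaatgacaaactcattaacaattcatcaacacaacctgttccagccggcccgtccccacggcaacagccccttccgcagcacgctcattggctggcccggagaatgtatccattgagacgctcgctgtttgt

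Positions count back from -1, the last base before the start. *DUSP1* held a full TGACGTCA at -125 to -118, a letter string present in 1.85% of 35116 RefSeq promoter windows of 300 bases (250 before and 50 after each start). It also held CACGTG at -108 to -103, which 7.26% of windows share, and 4 matches to GGGCGG, which 45.0% of windows have. *DUSP2* held CACGTG at -113 to -108 and 3 copies of GGGCGG. *DUSP6* had none of the 7 letter strings, and its 250 bases were 57.2% G or C against 74.4% for *DUSP1* and 74.0% for *DUSP2*. Of the 12 windows of the 8 genes, TGACG was present in 5 (24.6% of all windows) and TGANTCA in 1, of *SPRED2* (7.71%), while CCGGAAG (10.3%) and the CArG box (1.29%) were present in none. A match describes letters in these windows and says nothing of whether a factor was bound.

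The genes differ widely in extent. In the GENCODE annotation of GRCh38, *DUSP1* (chromosome 5, 172768096 to 172771195), *DUSP2* (chromosome 2, 96143169 to 96145440), *DUSP6* (chromosome 12, 89347235 to 89352501) and *SPRY2* (chromosome 13, 80335976 to 80341126) are compact, with 4, 4, 3 and 2 exons in the main transcript. *DUSP5* (chromosome 10, 110497907 to 110511533) and *SPRY4* (chromosome 5, 142310427 to 142326455) are of middle size, as is *DUSP4* (chromosome 8, 29333064 to 29350684). *DUSP10* (chromosome 1, 221701424 to 221742089), *SPRED1* (chromosome 15, 38252836 to 38357249) and *SPRED2* (chromosome 2, 65310851 to 65432637) are the long ones, *SPRED2* covering 122 kb. All but *DUSP5* and *SPRED1* lie on the minus strand.

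On the length-scaled TPM level, *DUSP6*, the cytoplasmic phosphatase selective for ERK, was the most abundant of the 10 in every condition, at 107 ± 4.62 TPM in attached cells (mean ± SD, n = 3), 146.0 ± 1.34 in suspended vehicle cells and 166 ± 7.33 with AT0174. Over the 9 libraries its mean level lay at the 92.1st percentile of the 15528 genes tested. *SPRED2* came second at 78.5 ± 0.75 TPM in attached cells, and *SPRY2* was the lowest at 2.61 ± 0.26 TPM, the 28.9th percentile.
In attached cells the order continued from *SPRED2* with *DUSP5* (40.9 ± 2.09 TPM), *DUSP2* (32.2 ± 3.56), *SPRED1* (29.5 ± 2.21), *SPRY4* (24.8 ± 1.18), *DUSP4* (16.1 ± 1.54), *DUSP10* (8.19 ± 0.92) and *DUSP1* (3.91 ± 0.066). Of these neighbors, *DUSP2* and *SPRED1* overlapped over their libraries and the others did not. In suspended vehicle cells *DUSP2* (52.5 ± 3.61 TPM) stood above *DUSP5* (47.0 ± 2.20), with overlapping libraries, and *DUSP1* (11.6 ± 2.61) above *DUSP10* (10.1 ± 0.64), again with overlap. With AT0174 the overlapping neighbors were *DUSP5* with *SPRED1* and *DUSP1* with *DUSP10*.

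**Figure D1:**
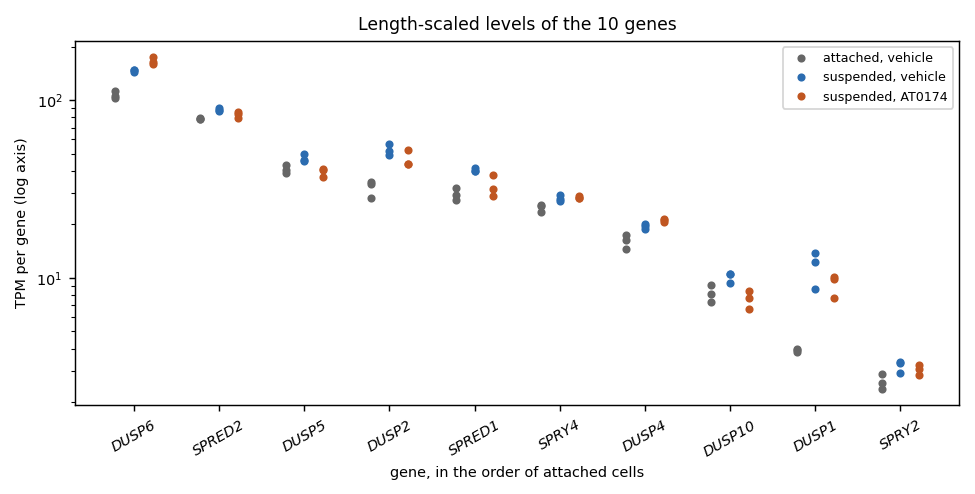
Length-scaled level (TPM, log axis) of each of the 10 genes, one point per library, colored by condition and ordered by the mean in attached cells. *DUSP6* is highest in all 3 conditions, and *DUSP1* moves from 3.84 to 3.97 TPM in attached cells to 8.66 to 13.7 TPM in suspended vehicle cells.

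Between conditions, each gene was compared as CPM (counts scaled for depth and, by TMM, for composition), without regard to length. Fold changes are given on the log2 scale with the standard error (SE) of edgeR's quasi-likelihood fit over all 9 libraries, and a gene is said to pass where its Benjamini-Hochberg adjusted p over 15528 genes was under 0.05. In the comparison of suspended with attached vehicle cells, values of the 10 genes are a description, as stated above. There 6 of the 10 were under the threshold and all 6 were higher in suspension, a count that the choice of genes partly set (*DUSP1*, *DUSP2*, *DUSP4*, *DUSP6*, *DUSP10* and *SPRED1*). Over all genes 21.2% passed, 10.4% being higher and 10.8% lower. The count was also 6 with the mitochondrial transcripts, which took a smaller share in suspension, left out before scaling.

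The nuclear phosphatases *DUSP1*, *DUSP2*, *DUSP4* and *DUSP5* are inducible genes whose products act on MAPKs that have entered the nucleus. *DUSP1*, an immediate-early gene whose product acts on p38, JNK and ERK, had 5.28, 5.26 and 5.28 CPM in the attached libraries, 15.6, 17.0 and 10.7 CPM in the suspended vehicle libraries, and 12.4, 13.3 and 9.91 CPM with AT0174. Every suspended library lay above every attached one, and the third library of each suspended condition was its lowest. Suspended vehicle cells had 2.73 times the attached level, a log2 fold change of 1.45 (SE 0.16). The attached values rest on 190 to 205 counts, for which counting alone gives an error of 7.25% at the lowest, so their closeness (SD 0.013 CPM) is below what sampling would give on average. AT0174 cells differed from suspended vehicle cells by -0.28 (SE 0.14, edgeR adjusted p = 0.607), and the groups overlapped.

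*DUSP2*, selective for ERK and p38, had 35.9, 34.5 and 30.2 CPM in the attached libraries, 47.0, 52.4 and 48.7 CPM after suspension with vehicle and 50.9, 43.6 and 43.97 CPM after suspension with AT0174. Both suspended groups were above the attached libraries without overlap, at a log2 difference of 0.56 (SE 0.074) for vehicle. The drug difference was -0.10 (SE 0.072, edgeR adjusted p = 0.770), with overlap.
*DUSP4*, which acts on ERK and JNK, had 67.2, 63.3 and 57.7 CPM in the attached libraries, 69.4, 71.2 and 70.4 CPM in suspended vehicle cells and 78.3, 79.3 and 75.9 CPM with AT0174. The 3 groups stood in steps without overlap. The log2 difference was 0.17 (SE 0.049) between suspended and attached vehicle cells and 0.15 (SE 0.048) between AT0174 and vehicle, the latter not passing the test (edgeR adjusted p = 0.291).

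*DUSP5* encodes a nuclear phosphatase specific for ERK. Its level was 71.9, 65.5 and 69.6 CPM in attached, 72.5, 71.0 and 76.5 CPM in suspended vehicle and 64.7, 60.7 and 64.9 CPM in AT0174 libraries. Suspended and attached vehicle cells overlapped (log2 difference 0.09, SE 0.045). All AT0174 libraries were below all other libraries, and the difference from suspended vehicle cells was -0.21 (SE 0.045), short of the threshold at an edgeR adjusted p of 0.0601.

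*DUSP6* had 131, 135 and 134 CPM in attached libraries, 174, 184 and 176 CPM in suspended vehicle libraries and 203, 214 and 199 CPM with AT0174. The 3 conditions were apart, with 4890 to 9823 counts behind each value. Suspended vehicle cells had 1.33 times the attached level (log2 0.42, SE 0.036). In suspended cells *DUSP6* rose with AT0174 by 0.21 on the log2 scale (SE 0.035, 1.16-fold, edgeR adjusted p = 0.0134), higher in 3 of 3 libraries than any vehicle library. This call did not hold without suspended vehicle replicate 1 (0.19, adjusted p = 0.0793), without suspended vehicle replicate 3 (0.20, adjusted p = 0.0855) or without AT0174 replicate 2 (0.18, adjusted p = 0.0643), and the adjusted p was 0.192 on counts rebuilt from TPM.

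*DUSP10*, which acts on p38 and JNK rather than ERK, was like *DUSP5* lower with AT0174 than with vehicle in suspended cells. It had 14.1, 11.8 and 13.9 CPM in attached, 15.7, 15.4 and 16.0 CPM in suspended vehicle and 12.5, 10.9 and 12.9 CPM in AT0174 libraries. The suspended vehicle libraries were above all others, while the attached and AT0174 libraries overlapped. The log2 difference was 0.24 (SE 0.078) for suspension and -0.37 (SE 0.078) for AT0174, the latter just short of the threshold (edgeR adjusted p = 0.0526). It passed with the DESeq2 Wald test (adjusted p = 0.00678) and with limma-voom (adjusted p = 0.0497), and left-out libraries gave adjusted p-values from 0.0757 to 0.192.

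**Figure D2:**
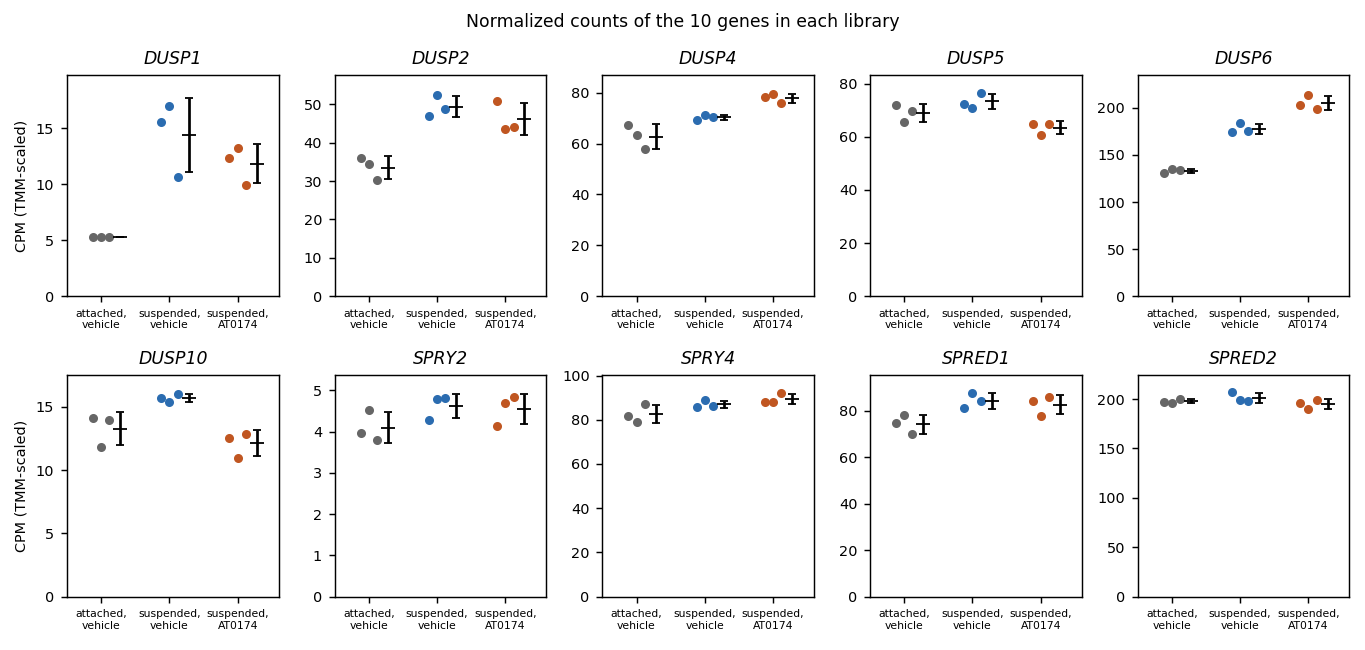
Normalized counts (CPM after TMM scaling) of the 10 genes by condition, one panel a gene with its own axis from 0, one point per library in replicate order, and mean ± SD beside the points. *DUSP6* and *DUSP4* climb in 2 steps, the AT0174 step of *DUSP4* not passing the test (edgeR adjusted p = 0.291). *DUSP5* and *DUSP10* are lower with AT0174 than with vehicle in suspension (edgeR adjusted p = 0.0601 and 0.0526), and *SPRED2* is nearly level.

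*SPRY2*, an adaptor that holds back RAS activation by receptors, had 3.97, 4.51 and 3.79 CPM in attached, 4.29, 4.78 and 4.80 CPM in suspended vehicle and 4.14, 4.68 and 4.83 CPM in AT0174 libraries. All 3 groups overlapped, on 147 to 213 counts a library. *SPRY4*, a relative of *SPRY2*, had 81.5, 78.9 and 87.1 CPM, then 85.9, 88.9 and 86.2 CPM, then 88.2, 88.1 and 92.2 CPM in the same order of conditions. Attached and suspended vehicle cells overlapped for *SPRY4* (log2 difference 0.08, SE 0.040), as they did for *SPRY2* (0.18, SE 0.11).

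*SPRED1*, which brings neurofibromin to the membrane to switch RAS off, had 74.5, 77.9 and 69.9 CPM in attached, 81.0, 87.4 and 84.0 CPM in suspended vehicle and 84.2, 77.8 and 85.8 CPM in AT0174 libraries. Suspended vehicle cells were above attached cells without overlap (log2 0.18, SE 0.049), and with AT0174 one library fell inside the attached range. *SPRED2*, of the same family, had 197, 196 and 200.2 CPM in attached, 207, 199 and 198 CPM in suspended vehicle and 196, 190 and 199 CPM in AT0174 libraries, overlapping throughout. Its log2 difference between suspended and attached vehicle cells was 0.02 (SE 0.031).

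Without attached replicate 3, 3 of the 10 genes rather than 6 were under the threshold between suspended and attached vehicle cells, and the descriptive count was also 3 without suspended vehicle replicate 2 or without suspended vehicle replicate 3. The groups did not overlap for 6 of the 10 genes, all higher in suspension, a pattern that 19.4% of all tested genes had in that direction and 18.7% in the other.

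The effect of AT0174 in suspended cells was tested against the same suspended vehicle libraries that enter the comparison above. The list was chosen with values of those libraries in view. For the 10 genes this comparison is therefore not independent of the choice either, which limits the weight of its p-values and counts. With the drug 1 of the 10 genes passed, *DUSP6*, where 0.779% of all genes did (0.522% higher, 0.258% lower). At an unadjusted p under 0.05 there were 2 higher (*DUSP4* and *DUSP6*) and 2 lower (*DUSP5* and *DUSP10*), against 4.56% and 4.46% of all genes, and for these 4 genes the AT0174 and vehicle libraries did not overlap. Over all genes 7.75% were higher and 7.66% lower without overlap. The 6 phosphatases thus lay on both sides of 0, from -0.37 for *DUSP10* to 0.21 for *DUSP6*.
Of the 4 Sprouty and SPRED genes, 0 passed edgeR's test with AT0174, 0 had an unadjusted p under 0.05, and DESeq2 and limma-voom each called 0. Their log2 differences are given with approximate 95% intervals from their SE and a normal distribution, narrower than edgeR's F test would give. The differences were -0.03 for *SPRY2* (-0.24 to 0.19), 0.04 for *SPRY4* (-0.04 to 0.12), -0.03 for *SPRED1* (-0.12 to 0.07) and -0.05 for *SPRED2* (-0.11 to 0.01). The sign of *SPRY2* turned without AT0174 replicate 1 (0.04) and that of *SPRED1* without AT0174 replicate 2 (0.01).

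Suspended AT0174 cells were also set beside attached vehicle cells, a comparison of culture and drug together that shares its libraries with both of the others. Here the log2 difference was 1.17 (SE 0.16) for *DUSP1*, 0.46 (SE 0.074) for *DUSP2*, 0.31 (SE 0.048) for *DUSP4* and 0.62 (SE 0.035) for *DUSP6*. *DUSP5* was at -0.12 (SE 0.045), with all AT0174 libraries below all attached ones, and *DUSP10* at -0.13 (SE 0.080) with overlap. *SPRED1* was at 0.16 (SE 0.049), *SPRY2* at 0.15 (SE 0.11), *SPRY4* at 0.12 (SE 0.040) and *SPRED2* at -0.02 (SE 0.031). Of the 10 genes 5 passed, all higher, against 24.0% of all genes (12.2% higher, 11.8% lower). This count too was partly set by the choice of genes, since it uses the same attached libraries. Leaving out single libraries gave 4 to 6, and the 6 without attached replicate 2 were 5 higher and 1 lower (*DUSP5*). Without overlap, 5 of the 10 were higher and 1 lower, against 20.4% and 19.1% of all genes.

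**Figure D3:**
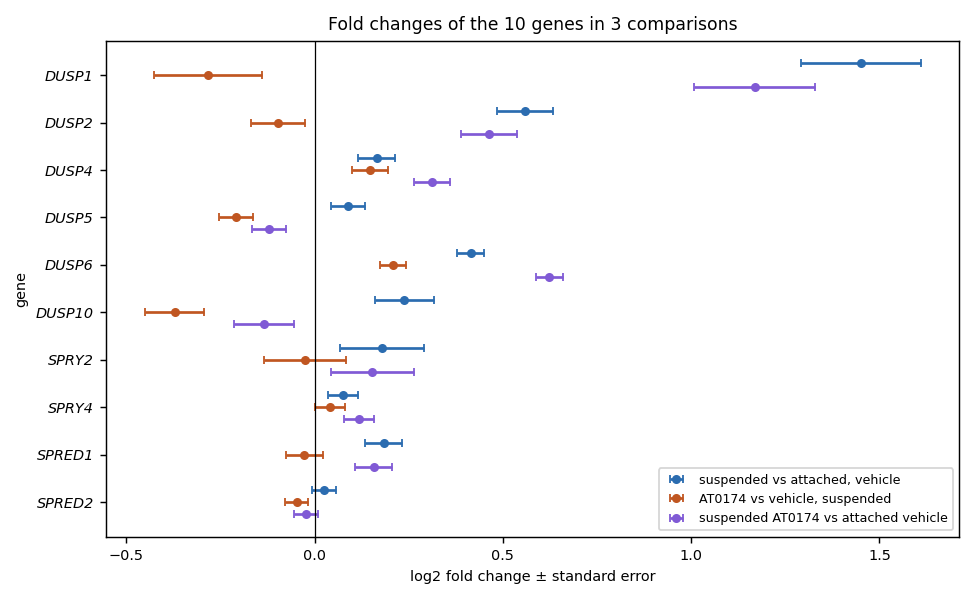
Log2 fold change of each of the 10 genes in 3 comparisons, with bars of 1 standard error from the edgeR fit. *DUSP1* is farthest to the right for suspension (1.45), and *DUSP6* and *DUSP4* lie to the right in all 3 comparisons. For AT0174 against vehicle *DUSP4* is not past the threshold. There *DUSP5* and *DUSP10* lie to the left (-0.21 and -0.37, neither past the threshold).

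Counts per gene sum over transcripts, and the transcript files show how reads were assigned. *DUSP1* has 1 transcript in the annotation used. For *DUSP6*, 3 of 5 transcripts held at least 10% of its TPM in some condition. Its longest coding transcript, of 3627 bases, held 25.8% ± 1.78 in attached, 28.99% ± 2.05 in suspended vehicle and 28.6% ± 2.49 in AT0174 cells (SD, n = 3), and a coding transcript of 1074 bases 35.6% ± 6.43, 33.7% ± 1.62 and 30.7% ± 2.00. For the first transcript the libraries of the 3 conditions overlapped (23.8% to 27.2% in attached, 26.9% to 30.99% in suspended vehicle and 26.3% to 31.2% in AT0174 cells), and the second differed from attached cells by less than the larger SD. For *DUSP2*, a transcript with a retained intron took 9.13%, 11.9% and 8.47% in attached, 14.5%, 14.5% and 12.9% in suspended vehicle and 10.2%, 13.2% and 8.09% in AT0174 libraries, the suspended vehicle libraries lying above the attached ones and overlapping those with AT0174.

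For *SPRED1* the value moved with the unit. Its full-length coding transcript of 7270 bases held 41.1% ± 3.38 of its TPM in attached cells, less than the 47.7% ± 6.68 of a transcript of 1177 bases with no defined coding sequence. A short transcript of 527 bases was given 0%, 13.7% and 19.6% in attached, 20.4%, 13.4% and 17.9% in suspended vehicle, and 15.1%, 0% and 0% in AT0174 libraries. In 3 of the 9 libraries this short transcript was listed at 0. Counts rebuilt from TPM gave *SPRED1* a log2 difference of 0.36 for suspension against 0.18 on the deposited counts, and of -0.27 (edgeR adjusted p = 0.518) against -0.03 for AT0174. The part of the short transcript in this was not tested.

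**Figure D4:**
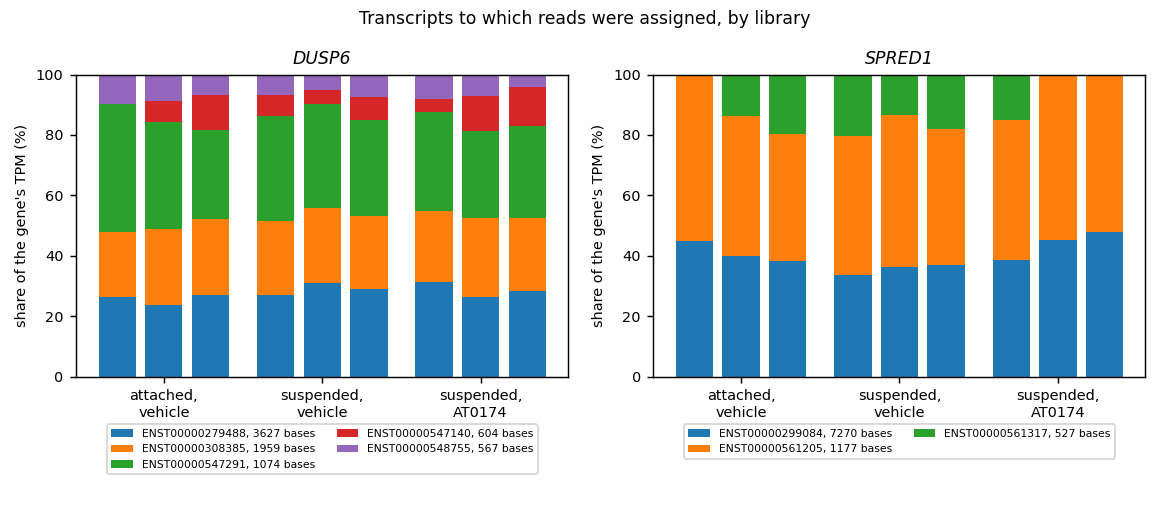
Share of the TPM of *DUSP6* and *SPRED1* (percent, stacked to 100) assigned to each annotated transcript, one bar per library in replicate order. The 1074-base transcript of *DUSP6* holds a mean of 30.7% to 35.6% in the 3 conditions, and the 527-base transcript of *SPRED1* is listed at 0 in 1 attached and 2 AT0174 libraries.

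To place the 10 genes in their pathway, 73 other genes in 5 lists were examined, of which 64 had enough counts to test. These lists too were chosen with earlier results of these data known, which limits the weight of their p-values. In suspended against attached vehicle cells 16 of the 64 passed, 8 higher and 8 lower, against 21.2% of all genes (10.4% higher, 10.8% lower), with a median log2 difference of 0.01, where the median over all genes was -0.0003. Of 4 other MAPK phosphatases tested, 1 passed, *DUSP16*, a JNK and p38 phosphatase, which rose by 0.25 (SE 0.038, edgeR adjusted p = 0.00113). Of 15 other inhibitors of RAS and receptors, 1 rose and 4 fell. *SPRY1*, a further Sprouty gene, rose by 0.33 (SE 0.048, edgeR adjusted p = 0.000803).

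Of 22 genes of the ERK cascade, from adaptors to ERK, 2 passed, where 21.2% of all genes did: the adaptor gene *GRB2* rose by 0.24 (SE 0.028, edgeR adjusted p = 0.000159), and *MAPK7*, which encodes ERK5, fell by 0.23 (SE 0.057, adjusted p = 0.0153). The call of *MAPK7* was lost without attached replicate 3 (-0.18, adjusted p = 0.0659) or suspended vehicle replicate 2 (-0.19, adjusted p = 0.0727). Of 14 genes of the p38 and JNK cascades 3 passed, all higher, led by the kinase genes *MAP3K5* (0.18, adjusted p = 0.00805) and *MAPKAPK3* (0.13, adjusted p = 0.0278), and the second lost its call when any of 5 of the 6 libraries was left out (adjusted p from 0.0568 to 0.0994). Of 9 tested genes outside the 10 that ERK is known to induce, 2 rose and 3 fell: *EGR1*, an immediate-early transcription factor, rose by 0.96 (SE 0.15, adjusted p = 0.00132) and *EPHA4*, an ephrin receptor, fell by 1.04 (SE 0.076, adjusted p = 4e-06), a call lost on counts rebuilt from TPM (-0.64, adjusted p = 0.0643). ERK-induced genes as a list therefore moved both ways, with a median of 0.03.

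With AT0174, 2 of the 64 passed, where 0.779% of all genes did, both among inhibitors of receptors and RAS. *SPRY1* had 42.5, 43.5 and 40.1 CPM in suspended vehicle and 50.1, 49.7 and 47.7 CPM in AT0174 libraries, a rise of 0.23 (SE 0.046, edgeR adjusted p = 0.0431). *ERRFI1* encodes an inhibitor of EGFR family kinases. It was lower in suspended than in attached vehicle cells (-0.15, edgeR adjusted p = 0.0112), at 79.1 ± 1.62 against 88.1 ± 3.32 CPM. With AT0174 it rose by 0.18 (SE 0.036, adjusted p = 0.0388) to 89.8 ± 1.89 CPM, overlapping the attached libraries. Leaving out any 1 of the 6 libraries left neither gene under the threshold, with adjusted p-values of 0.0733 to 0.210 for *SPRY1* and 0.0760 to 0.192 for *ERRFI1*. In the other 4 lists edgeR called 0 genes, with 1 of 4 other phosphatases, 3 of 22 ERK cascade genes, 1 of 14 p38 and JNK cascade genes and 3 of 9 ERK-induced genes at an unadjusted p under 0.05. Over all genes 4.56% were higher and 4.46% lower at that unadjusted p. Of the genes in these 4 lists DESeq2 called 1, in the ERK cascade, and limma-voom 0.
In suspended AT0174 against attached vehicle cells 21 of the 64 passed, 12 higher and 9 lower, against 24.0% of all genes (12.2% higher, 11.8% lower), among them *SPRY1* (0.56, edgeR adjusted p = 1.1e-05) and the p38 gene *MAPK13* (0.22, adjusted p = 0.00104). Leaving out AT0174 replicate 1 brought the 21 to 11, and leaving out AT0174 replicate 3 to 13.

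**Figure D5:**
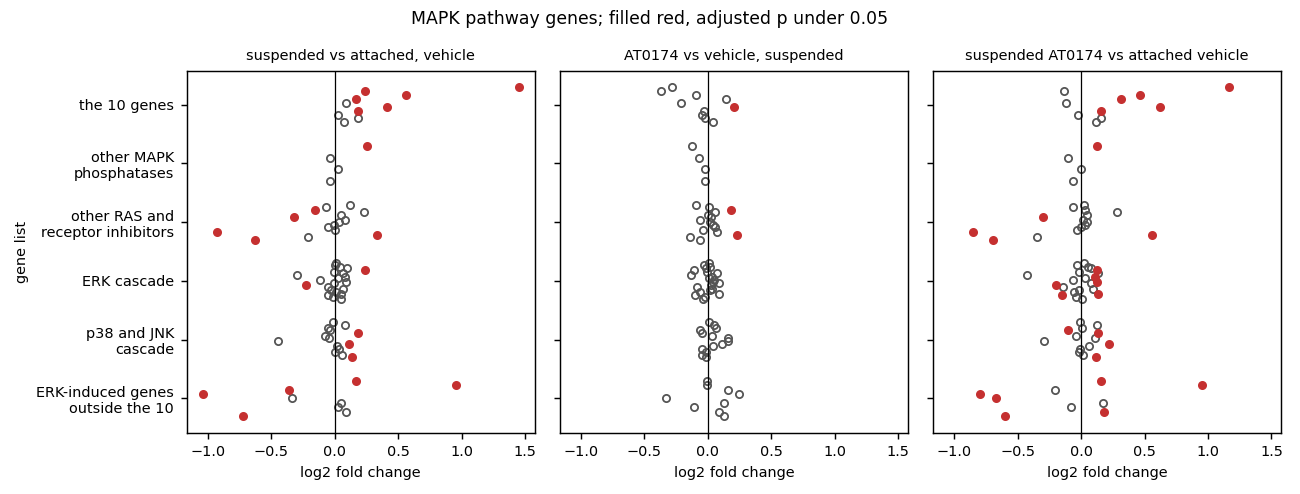
Log2 fold change of every tested gene of the 10 and of 5 other MAPK lists (rows) in 3 comparisons (panels with one common axis), filled red where the edgeR adjusted p was under 0.05. In suspension 6 of the 10 genes are filled and to the right, a count that the choice of genes partly set. Of the 64 others 16 are filled, on both sides, where 21.2% of all genes passed. With AT0174 3 points are filled, *DUSP6*, *SPRY1* and *ERRFI1*, where 0.779% of all genes passed.

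Profiles over the 9 libraries, which fall into 3 conditions and differ in depth, are given as a description. The log2 CPM of *DUSP6* had a Pearson r of 0.91 with *DUSP4*, 0.85 with *DUSP1* and -0.40 with *DUSP5*. Spearman's rho for the same pairs was 0.95, 0.58 and -0.62. Pearson r was also negative with *DUSP10* (-0.19) and *SPRED2* (-0.26), and positive with the rest of the 10. *DUSP1* was closest among the 10 to *DUSP2* (Pearson r = 0.91). Among 12525 genes with at least 50 normalized counts, the 3 most like *DUSP1* were *RIF1*, *BCOR* and *ABCC11* (r of 0.98 to 0.99) and the 3 most like *DUSP6* were *CLDN7*, *KLF2* and *TFRC* (0.98 to 0.99). Ranked by Spearman's rho instead, 0 of those 3 were among the top 3 for either gene.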

How the data were processed

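RNA-seq of 9 libraries (3 a condition) was analysed. Per the submitters' processing notes and methods, reads were trimmed with Cutadapt 3.4 in Trim Galore 0.6.7, aligned with STAR 2.7.9a to GRCh38 and quantified per transcript by Salmon 1.10.1. The authors deposited estimated counts per gene (expected counts, not scaled) and, per transcript, estimated counts and TPM. Reads shared by transcripts are split by estimation, so isoform shares are less certain than gene counts.

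Estimated counts were rounded. Genes were filtered by edgeR's filterByExpr, leaving 15528, scaled by TMM, and tested with edgeR 4.0.16 (quasi-likelihood, 3 conditions in 1 fit, Benjamini-Hochberg) in R 4.3.3. The study names limma, but because the values are counts edgeR was used, with limma 3.58.1 (voom) and DESeq2 1.42.0 as alternatives. Other alternatives were other filters and scalings, single libraries left out, and counts rebuilt from TPM, that is, gene sums of TPM times library depth. The scripts were tested on simulated data. All replicate pairs differed by more than counting noise. The labels do not state separate cultures, so p-values measure only the spread between these samples. Intervals cover no more than that.

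The 10 genes, the pathway lists and the motifs were chosen with earlier results of these data known. Of each pathway list, the 2 called genes with the smallest p in each comparison could be named. Not all of these are described. Protein sequences were not analysed here.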

Additional observations from a re-analysis of the deposited data

How the results depend on the processing

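Over 16 alternatives, the 10 genes gave 160 log2 differences in each comparison. In suspended against attached vehicle cells, where these genes are a description, 141 kept direction and side of the threshold and 19 lost it. For AT0174 against vehicle 140 kept both, 5 lost and 13 gained the call, and 2 turned sign (*SPRY2* to 0.039 without AT0174 replicate 1, its left-out values running from -0.081 to 0.039, and *SPRED1* to 0.014 without AT0174 replicate 2, running from -0.060 to 0.014). For suspended AT0174 against attached vehicle cells 145 kept both, 8 lost and 6 gained it, and *SPRED2* turned to 0.016 on counts rebuilt from TPM. The cause was not tested.

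For suspended against attached cells the count of the 10 genes called was 6, and 3 at an adjusted p of 0.01 (left-out libraries 3 to 6). For AT0174 against vehicle the count of 1 became 3 with DESeq2, 2 with limma-voom, 5 with no filter on low counts, 3 with at least 10 counts in every library, 2 with only the 6 libraries of the comparison, 2 without mitochondrial transcripts (an alternative chosen after seeing the data), 0 on counts rebuilt from TPM and 0 at 0.01 (left-out libraries 0 to 1). Those gained were *DUSP10* and *DUSP5*, and without a filter also *DUSP1* and *DUSP4*.

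Of the other pathway genes, 16 in suspended against attached cells became 8 on rebuilt counts and 10 at 0.01 (11 to 15 with libraries left out), 2 with AT0174 became 0 in both settings (0 to 0 with libraries left out), and 21 in AT0174 against attached cells became 8 and 10 (11 to 18). Over all genes, 3297 in suspended against attached cells became 1396 on rebuilt counts and 1405 at 0.01, and 1935 to 2693 with a library left out (1935 without attached replicate 3, 1951 without suspended vehicle replicate 2). With AT0174, 121 became 239 with DESeq2, 499 with no filter, 31 on rebuilt counts and 52 at 0.01, and 63 to 86 with a library left out. For AT0174 against attached cells 3724 became 1802 and 1839, and 2239 to 3276 with a library left out.

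Replicate numbers in the labels are shared between conditions. Same-numbered libraries did not deviate together (r from -0.16 to 0.11 over 9 pairs, against -0.19 to 0.19 over 18 pairs of different number). The numbers were therefore not used as pairs in the main fit. With 3 libraries a condition, this check cannot exclude a shared origin of same-numbered libraries. With the number as a block, 3 of the 10 genes rather than 1 passed for AT0174 against vehicle, *DUSP6*, *DUSP5* and *DUSP10*. *SPRY2* and *DUSP1* rest on the fewest counts, 147 and 190 at the lowest, which limits small differences most there.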
